A study of Homo sapiens with 2 samples.

Results

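The lysosomal genes described here are 41 named genes: soluble enzymes of the lysosome and their helper proteins, proteins of its membrane, and the transcription factors TFEB, TFE3 and MITF. They were taken by gene symbol, with no cut on signal, out of 20046 named genes on the array. The list itself was made with earlier results of these data known. The arrays hold 68 probes for 40 of them, and CD63 was not analysed here. RNA came from cells labelled Jurkat, a line from a human T cell leukaemia, cultured with Me6TREN for 24 hours or, as the control, with phosphate-buffered saline (PBS) for the same time, both in medium with fetal bovine serum. The compound, a branched polyamine used in chemistry to chelate copper, is called a small molecule in the labels, and its dose is not given in the sources used here. Each group had 1 Illumina HT12 array, so no value has a replicate error and no test was made: each difference below is between 2 arrays.

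The lysosome is an acidic compartment in which many hydrolases break down proteins, sugar chains, lipids and nucleic acids. Its soluble enzymes are made in the endoplasmic reticulum, tagged with mannose 6-phosphate and carried to the lysosome by receptors, while a proton pump, the V-ATPase, keeps the lumen acidic. TFEB and its relatives TFE3 and MITF bind an E-box in the promoters of many lysosomal genes, and TFEB itself is controlled largely by phosphorylation and by its place in the cell. In lymphocytes that present antigen, cathepsins and legumain also trim antigens and the invariant chain of MHC class II.

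The promoter windows of 9 of the 30 members with an entry in the RefSeq table (GRCh38.p14, 250 bases before to 50 after a gene's start) held the E-box CACGTG, and 5 held its longer form TCACGTGA, which lies within the motif described for TFEB. Both motifs read the same on both strands, and every TCACGTGA contains a CACGTG. Of all 27305 genes in that table, 8.78% had a window with CACGTG and 1.18% one with TCACGTGA; among the 7665 of them that were measured here the shares were 13.2% and 2.60%. The sites of 40 bases below show the longer form in the 5 genes, CTSA, CLN3, GAA, LAMP1 and MCOLN1, and the shorter one in NEU1 and CTSD, whose values are set beside them further on. Capitals mark the motif, and each site is written 5′ to 3′ on the strand of its gene.
CTSA (chr20:45891293-45891332, plus strand): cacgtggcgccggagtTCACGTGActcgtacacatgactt
CLN3 (chr16:28492053-28492092, minus strand): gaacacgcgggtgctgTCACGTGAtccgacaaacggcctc
GAA, first site (chr17:80101488-80101527, plus strand): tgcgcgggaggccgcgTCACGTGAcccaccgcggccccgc
GAA, other site (chr17:80101533-80101572, plus strand): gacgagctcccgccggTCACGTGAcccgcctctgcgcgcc
LAMP1, first site (chr13:113297194-113297233, plus strand): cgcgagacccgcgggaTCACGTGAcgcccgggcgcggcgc
LAMP1, other site (chr13:113297221-113297260, plus strand): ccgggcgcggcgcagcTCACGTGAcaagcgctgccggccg
MCOLN1, first site (chr19:7522566-7522605, plus strand): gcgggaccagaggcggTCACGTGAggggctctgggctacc
MCOLN1, other site (chr19:7522593-7522632, plus strand): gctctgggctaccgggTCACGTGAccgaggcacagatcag
NEU1 (chr6:31862925-31862964, minus strand): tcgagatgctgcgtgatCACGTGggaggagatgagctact
CTSD (chr11:1763952-1763991, minus strand): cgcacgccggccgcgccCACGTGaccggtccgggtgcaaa

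The motif began 26 bases before the annotated start in CTSA, 77 and 32 bases before it in GAA, 29 and 2 bases before it in LAMP1, and 42 and 15 bases before it in MCOLN1. It began 47 bases before the start in CTSD and 126 in NEU1. The LAMP1 window held 4 more CACGTG sites, 142 to 192 bases before the start. A match to these letters is a description of the window and not a bound site.

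The detection p-value of a probe is the share of negative controls on its array at or above its signal, and detected means under 0.01. The Me6TREN array detected 13656 of 47322 probes (28.9%) and the PBS array 15363 (32.5%), down to signals of 350.5 and 333.4. Of the B cell markers with a probe, 7 of 8 were detected, all 7 on both arrays, against 6 of 12 T cell markers, of which CD247 alone was detected on both, and CD3E, LCK, CD5, CD7, TRAT1 and UBASH3A on neither, so the labelled T cell identity was not borne out by these markers. The summed signals of the measured markers were 139855.9 with Me6TREN and 141057.4 with PBS for B cells, and 2339.0 with Me6TREN and 3107.7 with PBS for T cells. The signals of CD79A, a chain of the B cell receptor, were 33454.8 with Me6TREN and 32313.3 with PBS. Of 10 monocyte and macrophage markers, cells that are rich in lysosomes, CD68 was detected on both arrays (signals of 1323.8 with Me6TREN and 1280.6 with PBS). CD14 and LYZ were detected with Me6TREN alone, at signals of 370.0 and 350.9 near the lowest detected one, S100A8 with PBS alone at 358.8, and CSF1R, ITGAM, FCGR1A, MRC1, CD163 and S100A9 on neither; the 4 measured ones summed to 2351.7 with Me6TREN and 2244.9 with PBS. After the normalization used for the members, CD68 was 1.66-fold higher with Me6TREN, though its deposited signals were nearly equal, and CD14 at least 1.61-fold higher. Thus 2 of the 4 measured monocyte and macrophage markers were past 1.5-fold higher, against 16.5% of all measured genes. None was called lower, against 21.9% of all, but S100A8, detected with PBS alone, had no fold and could not be called. The median log2 ratio was 0.69 over the 3 with a ratio or bound. The values of CD14 and LYZ were bounds from signals near the limit of detection, and could lie only above 0. The part of these marker differences in the results below was not tested. In RNA from whole cultures, fewer cells of a type and less RNA per cell cannot be told apart.

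The median ratio of the lysosomal genes equalled that of all genes, and single members lay well above and below it. Of the 41, 32 were detected on both arrays and 3 (NAGLU, GAA and ACP2) on the PBS array alone, while CTSS, HEXA, IDUA, SGSH and MITF were detected on neither. Their 35 log2 ratios of Me6TREN over PBS, after background correction and quantile normalization, ran from -1.76 to 1.63 with a median of -0.07, which was also the median over the 8887 genes with a ratio or a bound, out of 9410 measured (detected on 1 array or both). At least 1.5-fold higher with Me6TREN were 7 of the 35 (20.0%), against 16.5% of all measured genes. At least 1.5-fold lower were 4 (11.4%), against 21.9% of all. At 2-fold, 3 members were higher, against 6.74% of all genes, and 2 lower, against 9.94%.

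The arrays differed in the brightness of their detected genes, and this bears on every direction given here. In the signals as deposited, 23 of the 32 members detected on both arrays (71.9%) were dimmer with Me6TREN, as were 78.8% of all genes detected on both. Quantile normalization takes such an array-wide difference out. With the values the authors scaled to equal means, the members' median log2 ratio was -0.39 and that of all genes -0.45. Of the 35 members 3 were past 1.5-fold higher and 13 lower with these values. Of all 9410 measured genes 638 were higher and 3982 (42.3%) lower, so the many lower members went with an array-wide shift. With each array centred on the median of its detected probes the 2 medians were 0.27 and 0.11, with 10 members higher and 3 lower. Of all measured genes 24.9% were then higher, and the share lower was under the 21.9% found after quantile normalization. Of all genes past 1.5-fold, 43.0% were higher after quantile normalization, 13.8% with the authors' values and 57.8% with median centring. The members' median differed from that of all genes by 0.00, 0.06 and 0.17 in these 3 scalings.

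**Figure D1:**
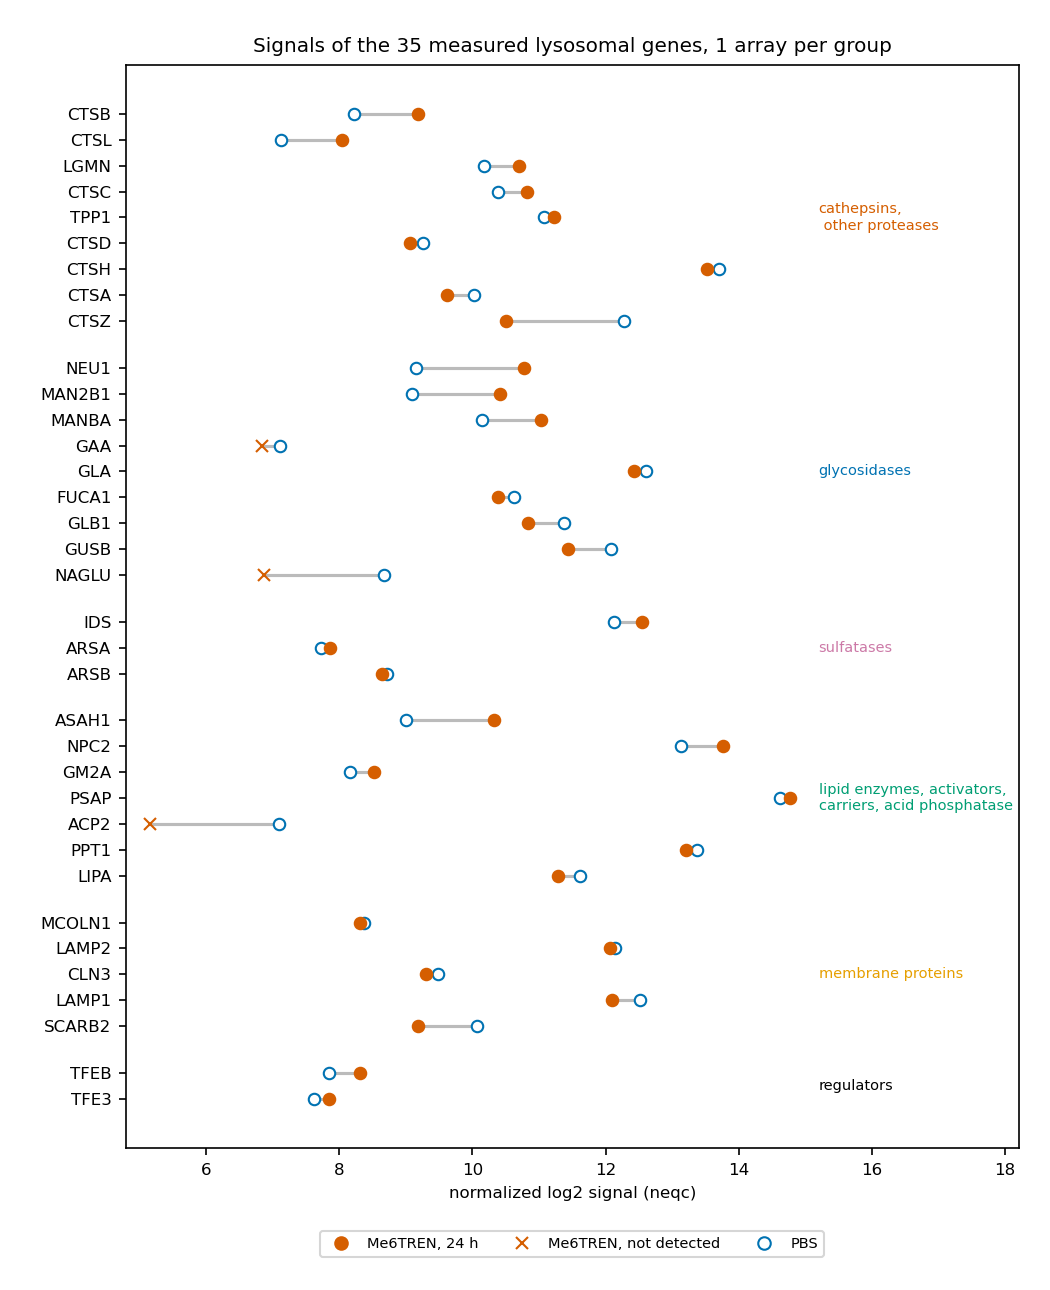
Normalized log2 signal (x axis) of each of the 35 measured lysosomal genes on the Me6TREN array (filled circles, or crosses where not detected) and the PBS array (open circles), by class, 1 array per group. CTSZ lies to the left with Me6TREN, and NEU1, MAN2B1 and ASAH1 to the right, each by more than 1 unit; the crosses of NAGLU, GAA and ACP2 lie below detection and their distances are not ratios.

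The cathepsins and other proteases held one clearly lower gene, CTSZ, and 2 moderately higher ones, CTSB and CTSL. The median log2 ratio of the 9 measured genes of this class was 0.16. At least 1.5-fold higher were 2 (22.2%, against 16.5% of all measured genes), and 1 was lower (11.1%, against 21.9%). CTSZ (cathepsin Z), a carboxypeptidase, had signals as deposited of 1372.2 with Me6TREN and 5918.4 with PBS. Its normalized log2 signals were 10.51 and 12.28 in that order, so that it was 3.40-fold lower with Me6TREN. This was the lowest ratio of any member measured on both arrays, and it was past 1.5-fold lower under all 12 alternative settings, with log2 ratios from -2.29 to -1.61. Settings that change only the detection filter, the bounds or the averaging of probes could not move this ratio, as CTSZ has 1 probe. The same holds for other members with 1 probe detected on both arrays, so the 12 settings are not 12 separate checks. With genes cut into 10 bins of signal, CTSZ shared its bin with 783 genes in all, of which the middle 90% of log2 ratios ran from -1.18 to 0.99; CTSZ, at -1.76, lay outside.

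CTSB (cathepsin B), an abundant cysteine protease, had signals of 676.0 with Me6TREN and 595.7 with PBS and was 1.93-fold higher after normalization. CTSL (cathepsin L), another cysteine protease, had signals of 444.9 with Me6TREN and 388.7 with PBS and was 1.89-fold higher. Both lay inside the middle 90% of genes of their signal, and both were under 1.5-fold with the authors' values (log2 ratios of 0.39 for CTSB and 0.49 for CTSL). CTSL was also under 1.5-fold with no background correction (0.41). CTSL has 3 probes and CTSB 2, of which 1 each was detected, so neither has a check by a further probe.

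The remaining proteases lay within 1.5-fold. CTSD (cathepsin D), the main aspartic protease, had a log2 ratio of -0.19, and CTSA, a carboxypeptidase, one of -0.40. TPP1, which removes tripeptides, had 0.16. CTSH, an aminopeptidase, was bright on both arrays, with signals of 10992.5 under Me6TREN and 14598.9 under PBS (log2 ratio -0.19, 0.02 by its other probe). LGMN (legumain), which cuts after asparagine, had 0.53, and 0.06 by its other detected probe.

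CTSC (cathepsin C), which activates granule proteases of immune cells, had the widest range of ratios among the 9 members with several probes detected on both arrays. Its brightest probe gave a log2 ratio of 0.44, and 2 others, annotated to the same transcript, gave -0.50 and -0.55. In the signals as deposited all 3 were dimmer with Me6TREN: 1647.1 against 1860.0 with PBS, 945.0 against 1843.2, and 1004.6 against 2029.1. A further probe was detected with PBS alone. CTSS (cathepsin S), which trims the invariant chain, was detected on neither array, at signals of 321.1 with Me6TREN and 325.4 with PBS.

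The glycosidases, which remove single sugars from glycoproteins and glycolipids, had a median log2 ratio of -0.18 over 9 measured genes. At least 1.5-fold higher were 3 (33.3%, against 16.5% of all measured genes), and 2 were lower (22.2%, against 21.9%). NEU1, the sialidase that takes off terminal sialic acids, was the highest member. Its signals as deposited were 1617.4 with Me6TREN and 933.7 with PBS, and after normalization it was 3.09-fold higher. Its log2 ratio of 1.63 lay above the middle 90% of 783 genes of like signal (-1.36 to 1.28), and was 1.0 to 1.68 under the 12 alternatives. NEU1 is measured by a single probe, with 15 beads behind the Me6TREN signal and 24 behind the PBS signal.

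Both mannosidases among the members were higher as well. MAN2B1, the alpha-mannosidase, had signals of 1284.8 with Me6TREN and 905.9 with PBS and was 2.50-fold higher, outside the middle 90% of like genes, with log2 ratios from 0.66 to 1.35 under the alternatives. MANBA, the beta-mannosidase, had signals of 1887.4 with Me6TREN and 1617.6 with PBS and was 1.85-fold higher, inside that range. With the authors' values the log2 ratio of MANBA was 0.39, which is under 1.5-fold.

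At the low end, NAGLU, an enzyme of heparan sulfate breakdown, was detected on the PBS array alone. Its signals were 341.1 with Me6TREN, just short of detection at a p-value of 0.013, and 739.1 with PBS. By quantile normalization it was at least 3.18-fold lower with Me6TREN, a log2 bound of -1.67. The size of this bound depends on the background correction: the log2 value was -0.82 with none and -1.07 with normexp. Over the 11 alternatives that gave a value it ran from -2.25 to -0.82, in each past 1.5-fold lower. GUSB, the beta-glucuronidase, had signals of 2421.5 with Me6TREN and 5230.2 with PBS and was 1.57-fold lower; with median centring its log2 ratio was -0.48, which is under 1.5-fold.

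GLB1 (beta-galactosidase) had a log2 ratio of -0.54 and, by a further probe, -0.62. FUCA1 (alpha-fucosidase) had -0.24 and GLA (alpha-galactosidase) -0.18. GAA, the acid alpha-glucosidase that breaks down glycogen, was detected with PBS alone, at a signal of 385.8 against 339.5 with Me6TREN, and the bound on its log2 ratio was -0.10. HEXA and IDUA were at background on both arrays.

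NEU1, CTSA and GLB1 encode the sialidase, the protective protein and the beta-galactosidase that form a complex in the lysosome. This set was picked out after its values were seen. The signal as deposited was 1.73 times as high with Me6TREN as with PBS for NEU1, and 0.551 and 0.486 times as high for CTSA and GLB1. The log2 ratio of NEU1 was above 0 and those of CTSA and GLB1 below 0 under all 12 alternatives, so the 3 partners did not share a direction on these 2 arrays.

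**Figure D2:**
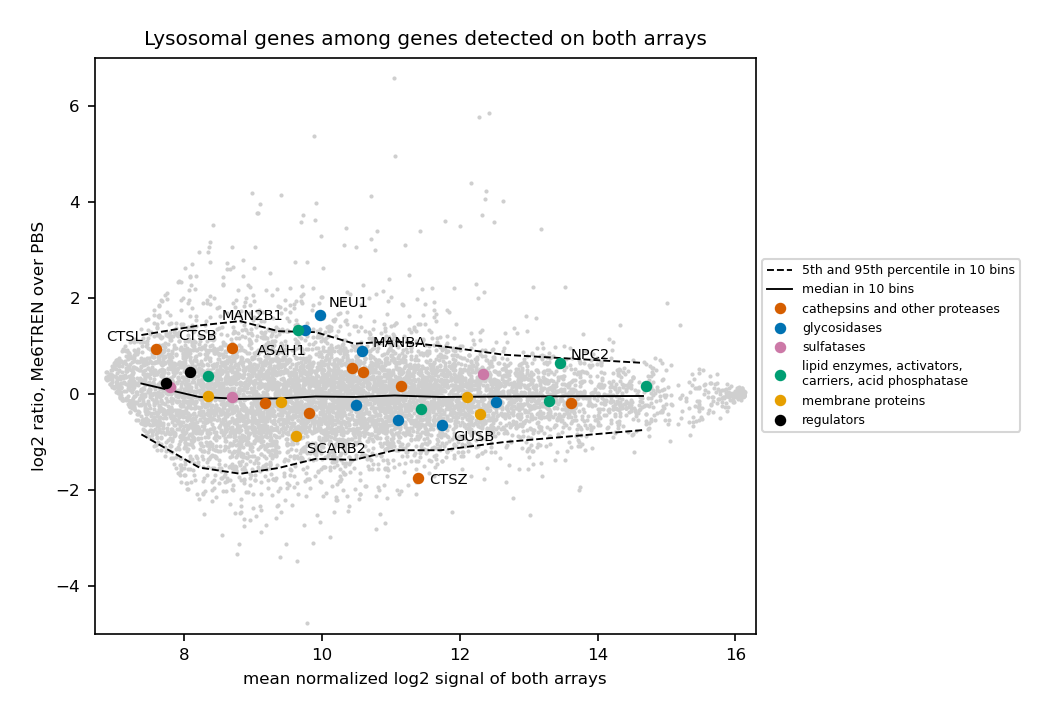
Log2 ratio of Me6TREN over PBS (y axis) against the mean normalized log2 signal of both arrays (x axis) for all genes detected on both (grey), with lysosomal genes coloured by class and the median and the 5th and 95th percentiles of all genes in 10 bins of signal as lines. NEU1, MAN2B1 and ASAH1 lie above the upper line and CTSZ below the lower one; the other 28 members lie between the values of their bins.

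By its brightest probe no sulfatase was past 1.5-fold, with a median log2 ratio of 0.13 over 3 measured genes. IDS, which acts on heparan and dermatan sulfate, had near-equal signals as deposited, 5404.1 with Me6TREN and 5396.5 with PBS. Its 3 probes gave log2 ratios of 0.41, 0.45 and 0.73. ARSB, which acts on dermatan sulfate, had -0.07 by its brightest probe and 0.80 by another, and these probes differed in sign in the deposited signals too (542.4 with Me6TREN against 751.2 with PBS, and 436.0 against 395.4). ARSA, which acts on sulfatide, had 0.13; its other probe was detected with Me6TREN alone, at 429.8 against 298.3 with PBS. With the mean of a gene's probes, where that probe counts, ARSA had a log2 ratio of 0.71, past 1.5-fold higher, and the class median was 0.53. SGSH was not detected.

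In the class of lipid enzymes, activators and carriers, ASAH1 and NPC2 were higher, and none of the 6 genes detected on both arrays was 1.5-fold lower; for ACP2 this could not be told. The median log2 ratio was 0.15 over the 7 measured genes, of which 28.6% were at least 1.5-fold higher, against 16.5% of all. ASAH1, the acid ceramidase, had signals of 1226.2 with Me6TREN and 864.7 with PBS and was 2.51-fold higher, outside the middle 90% of genes of like signal. It stayed past 1.5-fold under all 12 alternatives, with log2 ratios from 0.66 to 1.35. Its other probe was at background on both arrays.

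NPC2, which hands cholesterol to the membrane carrier NPC1, had signals of 13343.2 with Me6TREN and 10274.3 with PBS and was 1.55-fold higher. Its log2 ratio of 0.63 lay just inside the 95th percentile of its bin, 0.64, was 0.53 with the authors' values and 1.10 with median centring. PSAP, the precursor of the saposins that help enzymes reach lipids, was bright on both arrays (28685.0 with Me6TREN and 24966.6 with PBS), and its 2 probes gave log2 ratios of 0.15 and 0.12. With median centring its ratio was 0.92.

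GM2A, the activator that presents the GM2 ganglioside, had a log2 ratio of 0.37, the acid lipase LIPA -0.33 and the thioesterase PPT1 -0.15. ACP2, an acid phosphatase, was detected with PBS alone. Its signals were 218.2 with Me6TREN and 382.2 with PBS, and since the PBS signal was itself near the limit of detection, the bound on its log2 ratio was only -0.07. Without bounds it was -1.93.

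All 5 measured membrane proteins had a log2 ratio below 0, though 1 alone, SCARB2, was past 1.5-fold. Of all measured genes with a ratio 54.4% lay below 0. The median of the 5 was -0.17, against -0.07 over all genes. SCARB2 (LIMP-2), the receptor that brings glucocerebrosidase to the lysosome, had signals of 677.8 with Me6TREN and 1556.4 with PBS and was 1.85-fold lower, inside the middle 90% of genes of its signal (-1.55 to 1.30). It was past 1.5-fold lower under all 12 alternatives (log2 ratios from -1.57 to -0.68).

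LAMP1, the main glycoprotein of the lysosomal membrane, had signals of 3927.2 with Me6TREN and 6879.4 with PBS and a log2 ratio of -0.42. CLN3, a membrane protein mutated in a childhood storage disease, had -0.17, and -0.54 by its other probe. MCOLN1, the calcium channel through which lysosomes signal, had -0.05. With the authors' values these 3 were past 1.5-fold lower, at -0.71 for LAMP1, -0.79 for CLN3 and -0.65 for MCOLN1, as were 42.3% of all measured genes. The sign held under the alternatives for each of the 3, but not for LAMP2, whose log2 ratio of -0.07 was 0.18 with median centring.

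LAMP2 has 6 detected probes, 5 of which are annotated to 1 of 2 splice forms, and these separated by form. The 2 probes annotated to the LAMP-2A transcript, whose protein is the receptor of chaperone-mediated autophagy, gave log2 ratios of 0.23 and 0.24. The 3 annotated to LAMP-2B gave -0.07, -0.12 and -0.24. In the signals as deposited, the 2 LAMP-2A probes were 0.782 and 0.789 times as bright with Me6TREN as with PBS, and the 3 LAMP-2B probes from 0.611 to 0.706 times, so the forms did not overlap there either. The remaining probe, annotated to another transcript and near the limit of detection at signals of 355.9 with Me6TREN and 358.1 with PBS, gave 0.23. The mean difference, LAMP-2A minus LAMP-2B, was 0.38 on the log2 scale and ran from 0.30 to 0.41 under 7 other scalings. Probes of 1 gene commonly differ as well. Over 1912 genes with several probes detected on both arrays, the median range of log2 ratios among a gene's probes was 0.36. That range runs from the lowest to the highest probe, so it is not the same measure as a difference of 2 means. The 6 LAMP2 probes ran from -0.24 to 0.24. This grouping was made after the values were seen.

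**Figure D3:**
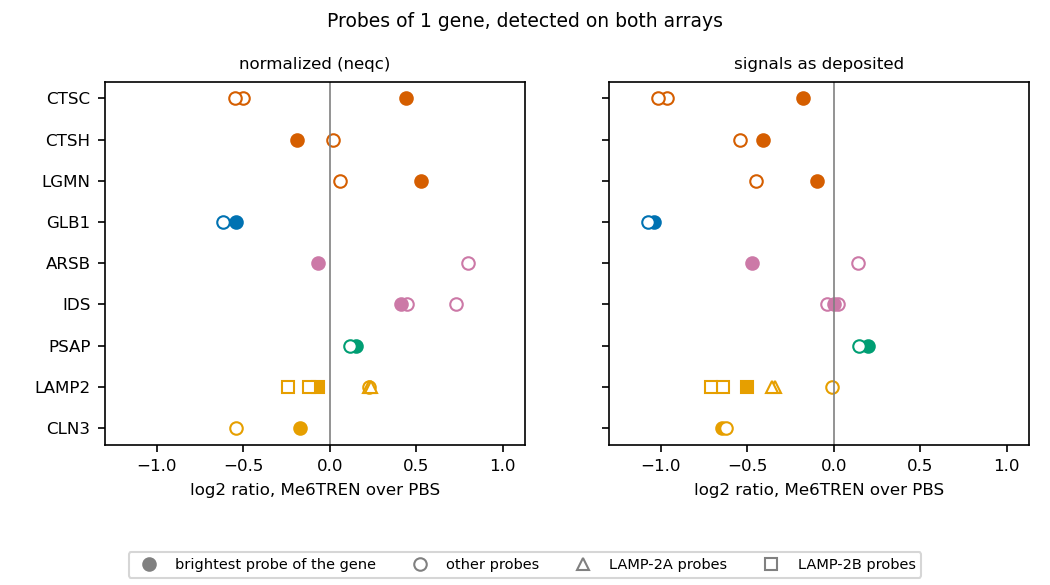
Log2 ratio of Me6TREN over PBS (x axes) by each probe of the 9 lysosomal genes with more than 1 probe detected on both arrays, after normalization (left) and from the signals as deposited (right). Filled symbols are the brightest probe of a gene, open ones the others; triangles are LAMP-2A probes, which lie to the right of the LAMP-2B probes (squares) in both panels, and the probes of CTSC and ARSB lie farthest apart.

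Among the regulators, neither TFEB nor TFE3 was past 1.5-fold. TFEB had signals of 482.1 with Me6TREN and 507.4 with PBS, both not far above the limit of detection, and a log2 ratio of 0.46. TFE3 had signals of 420.4 with Me6TREN and 462.9 with PBS and a log2 ratio of 0.23. For both the sign depended on the scaling: with the authors' values the log2 ratios were -0.09 for TFEB and -0.29 for TFE3. None of the 3 probes of MITF was detected. RNA levels carry no information on the phosphorylation of these factors.

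The 5 members whose promoters hold TCACGTGA were CTSA (-0.40), CLN3 (-0.17), GAA (bound of -0.10), LAMP1 (-0.42) and MCOLN1 (-0.05). All 5 lay below 0, though the bound of GAA, detected with PBS alone, could lie on no other side. None was past 1.5-fold after quantile normalization. With the authors' values 4 of the 5 were past 1.5-fold lower, at -0.99 for CTSA, -0.79 for CLN3, -0.71 for LAMP1 and -0.65 for MCOLN1. Of all measured genes 42.3% were past 1.5-fold lower with these values. The shorter E-box alone was in the windows of CTSD (-0.19), NEU1 (1.63), ARSB (-0.07, and 0.80 by another probe) and CD63, which has no value here. Members with no window to scan were CTSB, MANBA, ASAH1, NAGLU, HEXA, CTSS, LGMN, LAMP2, ARSA, SGSH and PSAP. Of these, CTSB, MANBA and ASAH1 were past 1.5-fold higher and NAGLU past 1.5-fold lower, and whether their promoters hold either motif was not examined. Over the 199 measured genes with TCACGTGA in a window, the median log2 ratio was -0.15, and 55.5% of those with a ratio lay below 0. Over all 7665 measured genes with a window the median was -0.09 and 56.0% lay below 0.

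**Figure D4:**
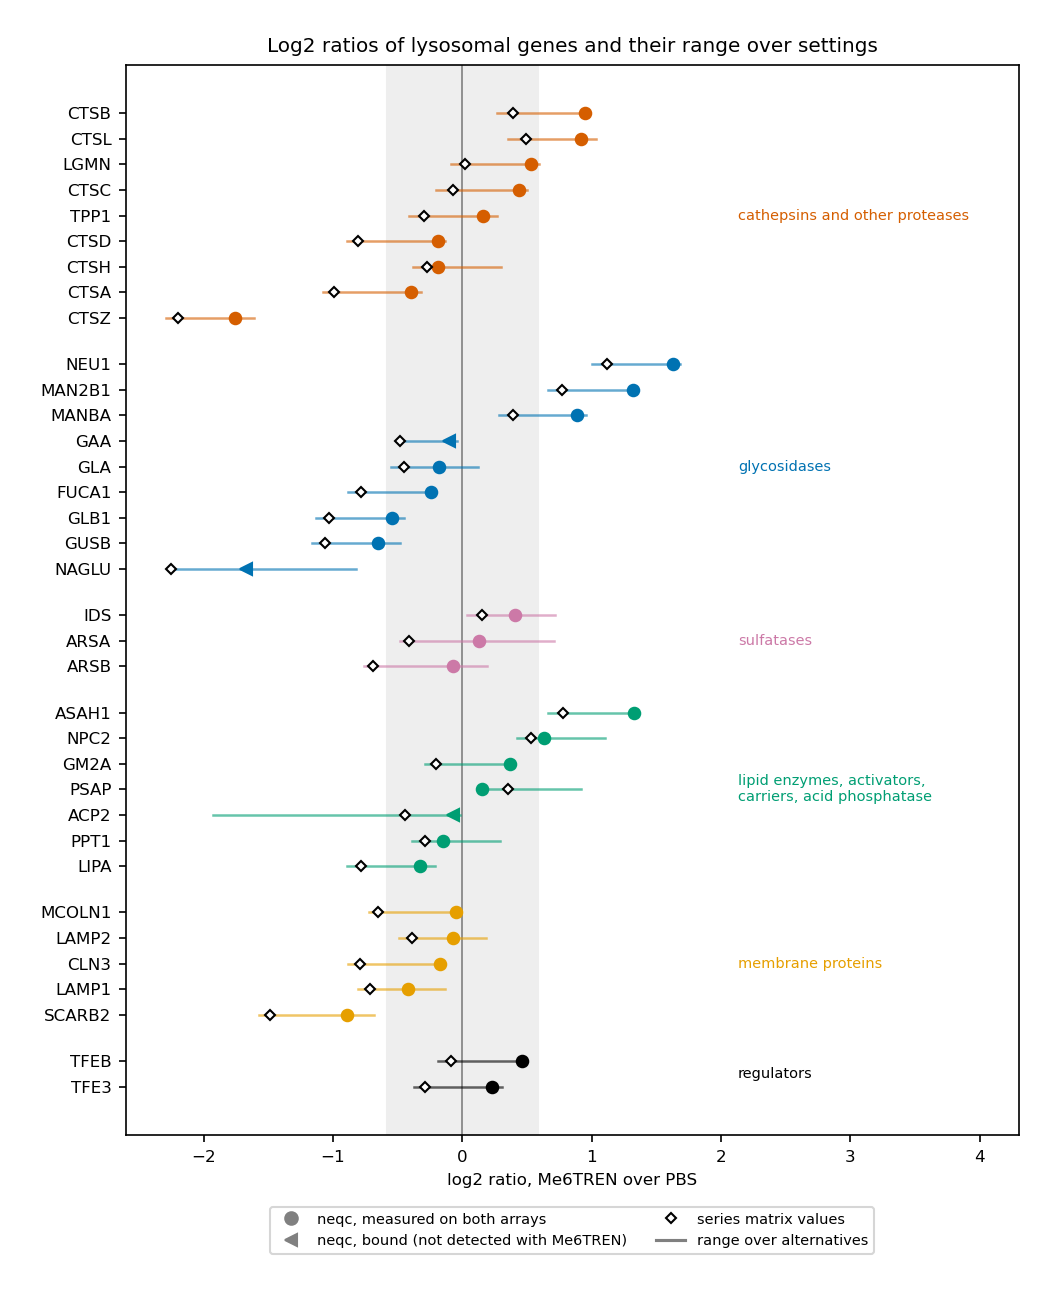
Log2 ratio of Me6TREN over PBS (x axis) of each measured lysosomal gene by quantile normalization (circles, or triangles where it is a bound), with the authors' series matrix values (diamonds) and the range over the alternative settings (lines); the grey band is under 1.5-fold. CTSZ, NAGLU and SCARB2 stay left of the band, and NEU1, MAN2B1 and ASAH1 stay right of it, over their whole ranges.

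In all, the 11 members past 1.5-fold kept their sign under every alternative that gave them a value, and 6 of them, NEU1, MAN2B1, ASAH1, CTSZ, SCARB2 and NAGLU, also stayed past 1.5-fold. Some alternatives cannot move a gene with 1 probe detected on both arrays, as given for CTSZ. The bound of NAGLU could only lie below 0, and without bounds its log2 ratio was -1.81. Of the other 24 members, 12 changed sign under at least 1 alternative. With the authors' values 9 of the 24 were past 1.5-fold lower, as were 42.3% of all measured genes.

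Other genes of the lysosome were set beside the members as 5 further groups. Of the V-ATPase subunits, 19 of 23 were measured, 1 at least 1.5-fold higher (5.26%, against 16.5% of all genes) and 4 lower (21.1%, against 21.9% of all), with a median log2 ratio of 0.07. With median centring 5 were higher, against 24.9% of all genes. The largest differences were in its membrane sector. ATP6V0A2 had signals of 743.2 with Me6TREN and 2258.9 with PBS and was 2.49-fold lower, and ATP6V0A1 had 2382.1 with Me6TREN and 7716.4 with PBS and was 2.44-fold lower. These 2 genes encode alternative forms of the large membrane subunit. ATP6V0E2, a small membrane subunit, was 1.92-fold lower.

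Genes of mannose 6-phosphate tagging and sorting had 1 of 8 measured genes higher (12.5%) and 2 lower (25.0%, near the 21.9% of all genes), with a median of -0.37. None was higher with no background correction, where 880 of all 9410 measured genes were. With the authors' values 5 were lower, as were 42.3% of all genes. With median centring 1 was lower, and the share of all genes lower was also under 21.9%. NAGPA, which uncovers the tag, had signals of 377.3 with Me6TREN and 810.8 with PBS and was 2.71-fold lower, and the receptor M6PR, with signals of 5457.9 and 10589.4 in that order, was 1.56-fold lower. GGA1, an adaptor of receptor sorting, was 1.88-fold higher.

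Of 12 measured genes of nutrient sensing at the lysosome, 1 was higher and 5 lower (median 0.01), the 5 being 41.7% against 21.9% of all genes. This count was not stable: 3 were lower with no background correction, with normexp and with an offset of 50. With median centring 2 were lower and 3 higher. The share of all genes lower was also under 21.9% in each of these settings, and 24.9% of all were higher with median centring. SLC38A9, the arginine sensor, had signals of 378.2 with Me6TREN and 762.2 with PBS and was 2.48-fold lower. RRAGA, a Rag GTPase, was 1.71-fold lower, and the kinase MTOR, which phosphorylates TFEB, 1.57-fold lower. CSTB, an inhibitor of cathepsins and the single cystatin measured, had a log2 ratio of 0.35.

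Of 20 further measured lysosomal enzymes and membrane proteins, 1 was higher (5.0%, against 16.5% of all genes) and 6 lower (30.0%, against 21.9%). The median was -0.38. The higher gene was CD68, which was also counted above among the monocyte and macrophage markers. With the authors' values 11 were lower and none higher, while 42.3% of all measured genes were lower. With no filter on detection 10 were lower, but out of the 29 genes of this group with a probe. That setting also counts genes detected on neither array, and 3275 of all 20046 genes were lower under it. MFSD8, a membrane protein, was 2.10-fold lower, the cystine exporter CTNS 1.73-fold lower, with signals of 739.2 under Me6TREN and 1647.0 under PBS, and MAN2B2, a mannosidase, 1.69-fold lower. These groups hold few genes, and no group was tested against the others.

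**Figure D5:**
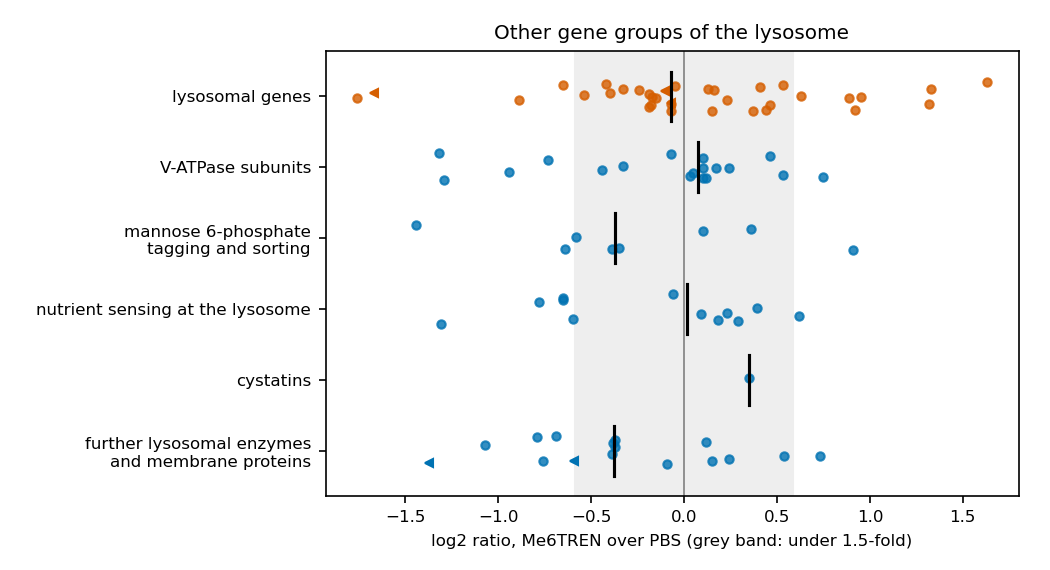
Log2 ratio of Me6TREN over PBS (x axis) of each measured gene in the lysosomal genes (top) and 5 other gene groups of the lysosome; circles are measured ratios, left-pointing triangles bounds, and the black line is the group's median. The grey band is under 1.5-fold, and the medians run from -0.38 to 0.35.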

How the data were processed

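The authors deposited a non-normalized table. Its columns, per the file headers, are a probe's mean bead signal (a linear intensity that includes background), its detection p-value and its bead count (median 22 on both arrays; 13 to 41 for the probes used here). A deposited series matrix holds intensity values too, and each column was a straight line of the array's signal (slope 1.05 for Me6TREN and 0.951 for PBS) with 1297 as mean of both columns and medians of 28.8 and 30.9; it is linear, not centred by gene and rises with the signal. The authors' software is not given in the sources used here; the target was biotin-labelled cRNA, per the labels' protocols.

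The signals were background-corrected with limma 3.58.1 (R 4.3.3, neqc, offset 16), which infers negative controls from the detection p-values, and quantile-normalized on the log2 scale. GEO's platform annotation names 1 gene for 30113 probes, several genes for 8 and no gene for 17209; 30074 were matched by Entrez ID to RefSeq (GRCh38.p14). A gene is represented by its brightest detected probe, and 9410 genes were detected on at least 1 array. Where 1 side was not detected, the other side was set against that array's lowest detected signal or the probe's own value, whichever was higher, as a bound; no fold is given where the bound is under 1. With 1 array per group genes were counted at 1.5-fold, without a test; the number of arrays limits the precision. Genes were split into 10 bins of mean signal to show the spread. The steps were also run on simulated data. The arrays simulated for the normalization shared the same background and brightness, so that run does not cover the difference in brightness between the real arrays. Named genes are all members, the cell type markers and, per further group, the 3 genes detected on both arrays with the largest log2 ratios in size. The members and lists were chosen with earlier results of these data known. The alternatives are no background correction, normexp with offset 50, median centring over probes detected on both arrays, series matrix values, floored at 99.9, a detection threshold of 0.05, detection on both arrays, no filter, the mean of probes, an offset of 50, no bounds and a 2-fold threshold; cyclic loess and median centring over all probes were added after seeing the data.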

Additional observations from a re-analysis of the deposited data

How the results depend on the processing

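Counts of members at least 1.5-fold higher or lower were 7 and 4. They were 3 and 13 with the series matrix values, 3 and 13 with median centring over all probes (an alternative chosen after seeing the data, which centres on probes that are mostly undetected), and 3 and 2 at a 2-fold threshold; under the other alternatives they stayed within 1.5 times. Over all measured genes the counts were 1556 higher and 2059 lower. They were 880 and 1356 with no background correction, 638 and 3982 with the series matrix values, 504 and 4346 with median centring over all probes, 634 and 935 at 2-fold, 2495 and 3275 with no filter on detection, which tests 20046 genes, and 2340 higher with median centring over detected probes. With median centring over all probes the median log2 ratio was -0.48 for the sulfatases, -0.81 for the membrane proteins and -0.28 for the regulators, while that of all genes was -0.52. No member past 1.5-fold turned in sign, though NAGLU could not turn where its value was a bound. No paired analysis was possible because each group has 1 array. Signals near background limit NAGLU, GAA, ACP2, TFEB, TFE3, CTSL and ARSA.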
